A study of Mus musculus with 40 samples.

Results

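The genes described here, 8 in number, belong to the epithelial-mesenchymal transition and were followed across mouse embryonic stem cells that lack or regain the corepressor CtBP: Zeb1, Zeb2, Snai1, Snai2, Twist1, Vim, Cdh2 and Fn1. They were picked out by symbol from a given list, and all 8 were found among the 55391 gene symbols of the 3 RNA-seq tables. All 8 also passed the filter on low counts in each table. The cells are E14tg2a, an embryonic stem cell line of mouse kept in serum and leukaemia inhibitory factor, and 34 RNA libraries were read. The series also lists 6 bisulfite libraries, which were not analysed here.

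Zeb1 and Zeb2 are zinc finger repressors that bind E-box motifs and recruit CtBP1 and CtBP2, the corepressors encoded by Ctbp1 and Ctbp2, which in turn bring histone demethylases, deacetylases and methyltransferases. Snai1 and Snai2 are zinc finger repressors that bind the same kind of E-box, and Twist1 is a basic helix-loop-helix factor. Together these factors are known for switching off Cdh1, the gene of E-cadherin, and for promoting a mesenchymal state. That state is marked by Vim (vimentin, an intermediate filament), Cdh2 (N-cadherin) and Fn1 (fibronectin, a matrix glycoprotein). Naive embryonic stem cells hold high E-cadherin and an epithelial character.

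The genotype table has 2 libraries each of wild type (WT), the Ctbp double knockout (CtbpDKO), the Dux knockout (DuxKO), Ctbp and Dux combined (Ctbp-Dux TKO), the Dppa2 knockout (Dppa2KO), and a group whose title names Dppa2 and Dux while its description names the double knockout and Dppa2. That last group is called DKO-Dppa2 after its description. Dux encodes a transcription factor of the 2-cell embryo and Dppa2 a chromatin factor that acts ahead of it. A second table, called the Pramel7 table, pairs 4 WT libraries with 4 groups of 2: DuxKO, a group labelled P7OE that overexpresses Pramel7, its counterpart on a DuxKO background (DuxKO-P7OE), and the knockout labelled P7KO. CtbpDKO cells were also sampled on days 0, 3, 9, 12 and 18, with 2 libraries per day. Dox stands in those titles, with no agent, dose or schedule named in the sources used here. The sources used here do not say whether a group is 1 clone or several, or whether its libraries come from separate cultures, so p-values measure only the spread between these libraries, which may be technical.

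Ctbp1 had 1911 and 2109 counts in WT and at most 4 counts in any library of the 3 Ctbp knockout groups. Ctbp2 stood at 211 and 215 CPM (counts scaled to a common library size) in WT and at 43.6 and 43.8 CPM in CtbpDKO, so reads over Ctbp2 were reduced but not absent. In the time course Ctbp1 never exceeded 4 counts, while Ctbp2 rose from 58.9 and 59.3 CPM at day 0 to 544 and 573 CPM at day 3. Ctbp2 was at 310 and 296 CPM at day 9 and back at 49.4 and 44.7 CPM at day 12 and at 52.4 and 54.7 CPM at day 18. The days therefore sort into low Ctbp2 (0, 12 and 18) and high Ctbp2 (3 and 9). Summed markers of embryonic stem cells lay between 2203.7 and 4392.2 CPM in the 34 libraries, and no marker of that list was at 0. The shallowest library held 10123058 counts and the deepest 36025046. In bulk RNA, a lower share of expressing cells and less RNA per cell cannot be told apart.

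Adjusted p-values below are Benjamini-Hochberg values over all tested genes of a table from edgeR's quasi-likelihood test. A gene is called under an adjusted p of 0.05, and log2 fold changes are given with their standard error (SE). CPM is not divided by gene length, so levels are compared within a gene and not between genes. Counts of genes by unadjusted p or by DESeq2 have no share over all genes beside them, so they are not read as high or low.

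The members lie on 5 chromosomes of the mouse assembly GRCm38.p6, as annotated by RefSeq. Vim spans bases 13574311 to 13582826 of chromosome 2, Snai1 bases 167538195 to 167542814 of chromosome 2 and Zeb2 bases 44983512 to 45117442 of the same chromosome. Twist1 lies on chromosome 12 (33957671 to 33959831), Snai2 on 16 (14705852 to 14709395) and Fn1 on 1 (71585473 to 71653280). Zeb1 (5591327 to 5775468) and Cdh2 (16588877 to 16809246) are both on 18. Because Snai1 and Vim moved together and Zeb2 moved against them when Ctbp was lost, the 250 bases before their annotated starts are shown, 5′ to 3′ on the gene's strand, from RefSeq on GRCm38.p6. Zeb2 has 4 annotated starts, and its outermost one was used. Capitals mark CACCTG, the E-box bound by Snai and Zeb factors, searched on both strands, where it also reads CAGGTG.
Snai1, chr2:167537945-167538194, plus strand: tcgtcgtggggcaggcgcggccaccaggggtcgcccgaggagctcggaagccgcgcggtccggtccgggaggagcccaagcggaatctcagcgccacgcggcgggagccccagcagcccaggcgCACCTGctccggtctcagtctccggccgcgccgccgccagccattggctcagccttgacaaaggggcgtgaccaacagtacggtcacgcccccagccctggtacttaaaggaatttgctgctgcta
Vim, chr2:13574061-13574310, plus strand: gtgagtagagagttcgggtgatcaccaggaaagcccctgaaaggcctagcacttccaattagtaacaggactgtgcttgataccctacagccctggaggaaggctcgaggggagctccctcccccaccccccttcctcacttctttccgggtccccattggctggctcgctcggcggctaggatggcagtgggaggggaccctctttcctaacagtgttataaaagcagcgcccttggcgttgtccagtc
Zeb2, chr2:45117443-45117692, minus strand: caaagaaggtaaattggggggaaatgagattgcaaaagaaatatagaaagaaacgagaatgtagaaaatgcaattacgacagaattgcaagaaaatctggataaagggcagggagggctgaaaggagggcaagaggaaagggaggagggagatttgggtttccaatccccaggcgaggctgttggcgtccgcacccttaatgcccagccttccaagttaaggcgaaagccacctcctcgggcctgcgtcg

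The Snai1 window holds 1 CACCTG, which begins 126 bases before the start, and the Vim and Zeb2 windows hold none of these letters. Among 32841 RefSeq windows of the same length, 17.2% hold the motif on either strand. The wider E-box CANNTG, of which CACCTG is 1 form, is in 66.2% of the windows and occurs in the Snai1 window only as that CACCTG. The Snai1 window has 27 CpG dinucleotides, the Vim window 8 and the Zeb2 window 9, against a median of 6. A match describes letters and is not a bound site.

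Loss of Ctbp did not move these genes in 1 direction. In CtbpDKO cells Snai1 and Vim rose, Zeb2, Cdh2 and Fn1 fell, and Zeb1, Snai2 and Twist1 were not called. Thus 5 of the 8 genes were called, where 26.1% of all tested genes were. Cdh1, the textbook target that Zeb and Snai factors repress, rose by 1.68 on the log2 scale (SE 0.09, edgeR adjusted p 2.9e-08). Their median log2 fold change was −0.17 against 0.0073 over all tested genes.

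**Figure D1:**
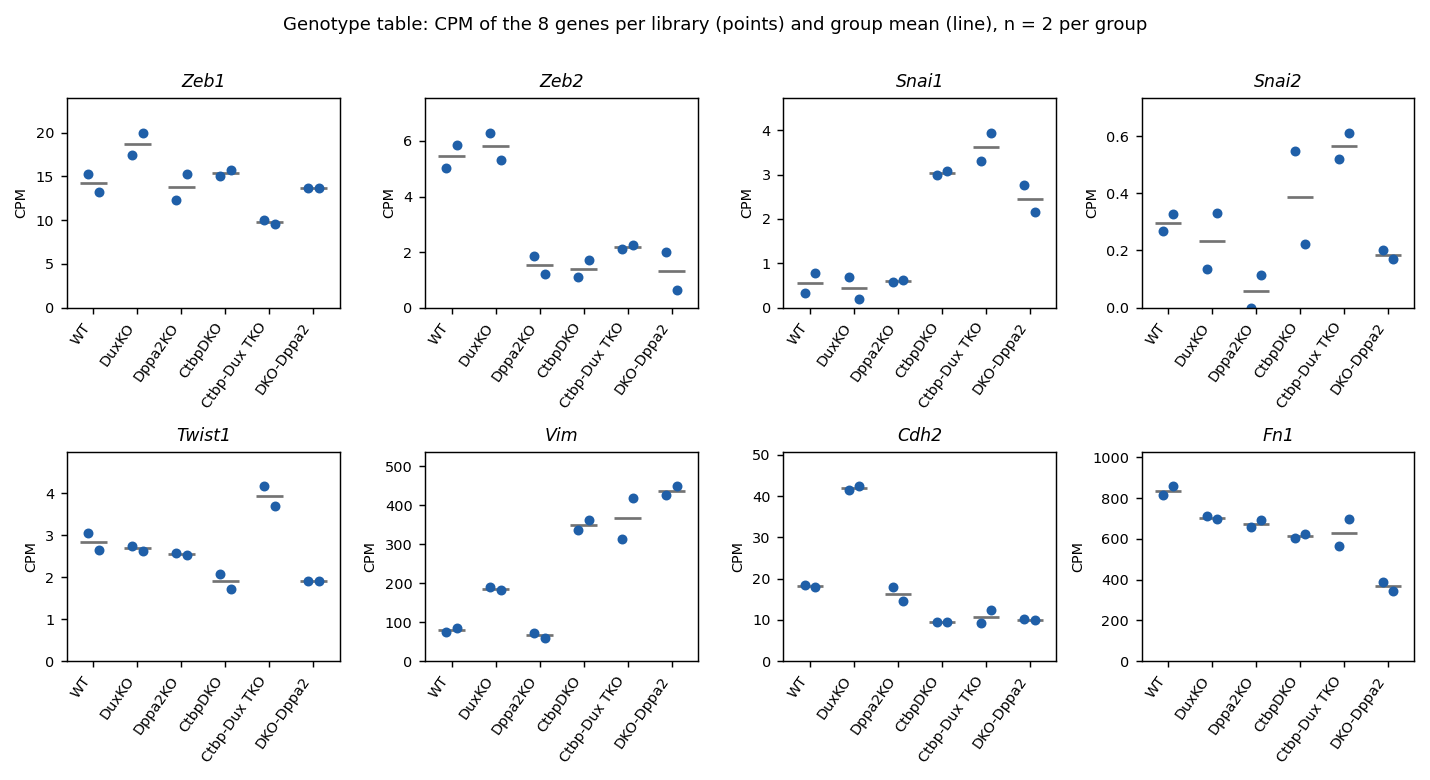
CPM of each of the 8 genes (vertical axes, linear from 0) in the 6 groups of the genotype table, with points for libraries and lines for group means, 2 libraries per group. Vim and Snai1 are high in the 3 Ctbp knockout groups, Cdh2 is low in them and high in DuxKO, and Zeb2 is high only in WT and DuxKO.

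Zeb2, the partner of Zeb1 among CtBP-binding repressors, had 5.03 and 5.87 CPM in WT and 1.10 and 1.70 CPM in CtbpDKO, on 150 and 180 counts against 36 and 61. It had 6.29 and 5.32 CPM in DuxKO, 1.87 and 1.22 CPM in Dppa2KO, 2.12 and 2.24 CPM in Ctbp-Dux TKO, and 2.00 and 0.636 CPM in DKO-Dppa2. WT and DuxKO overlapped and stood above all other libraries, and Dppa2KO, with both Ctbp genes intact, was as low as CtbpDKO. The log2 fold change was −1.95 in CtbpDKO against WT (SE 0.37, edgeR adjusted p 0.0015) and −1.81 in Dppa2KO against WT (SE 0.36, edgeR adjusted p 0.0048). Both values share the WT libraries. In Ctbp-Dux TKO against DuxKO, which shares no library with these, Zeb2 fell by 1.41 on the log2 scale (SE 0.36, edgeR adjusted p 0.0069). In DKO-Dppa2 against Dppa2KO it was not called (−0.26, SE 0.42, edgeR adjusted p 0.68), and the test of whether Ctbp loss differed with Dppa2 gave 1.69 (SE 0.56, edgeR adjusted p 0.083).

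Zeb1 had 15.3 and 13.2 CPM in WT and 15.1 and 15.7 CPM in CtbpDKO. DuxKO had 17.4 and 20.0 CPM, Dppa2KO 12.3 and 15.3 CPM, and DKO-Dppa2 13.6 and 13.7 CPM. Ctbp-Dux TKO was lowest, at 10.0 and 9.54 CPM. Zeb1 therefore differed little between WT and CtbpDKO (0.12, SE 0.13, edgeR adjusted p 0.58), while Ctbp-Dux TKO lay 0.94 below DuxKO on the log2 scale (fold change −0.94, SE 0.14, edgeR adjusted p 0.00011). Against CtbpDKO the value was −0.66 (SE 0.14, edgeR adjusted p 0.010). This call was lost when any 1 of the 4 libraries was left out, with edgeR adjusted p from 0.053 to 0.062.

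Snai1, whose product represses Cdh1, was near the floor of detection in WT at 10 and 24 counts, or 0.336 and 0.782 CPM. CtbpDKO reached 98 and 110 counts (2.99 and 3.07 CPM). Ctbp-Dux TKO had 76 and 116 counts (3.29 and 3.94 CPM) and DKO-Dppa2 55 and 51 counts (2.75 and 2.16 CPM). DuxKO had 0.680 and 0.199 CPM and Dppa2KO 0.578 and 0.624 CPM, so the 6 Ctbp knockout libraries stood above the 6 others with no overlap. Snai1 rose by 2.43 in CtbpDKO (SE 0.44, edgeR adjusted p 0.0011), by 3.04 in Ctbp-Dux TKO against DuxKO (SE 0.46, edgeR adjusted p 0.00016) and by 2.02 in DKO-Dppa2 against Dppa2KO (SE 0.44, edgeR adjusted p 0.0035). The low counts of the controls move the size: the first value was 3.14 without WT replicate 2, and the second 4.15 without DuxKO replicate 1 and 2.38 without DuxKO replicate 2.

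Snai2, the paralog of Snai1, had at most 18 counts in any library of the genotype table, in CtbpDKO replicate 1 and Ctbp-Dux TKO replicate 2. It had 8 and 10 counts in WT and 18 and 8 in CtbpDKO. Its change in CtbpDKO was 0.37 with an SE of 0.84 (edgeR adjusted p 0.80), and no difference was detectable at this depth in any comparison of this table.

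Twist1 stood at 3.05 and 2.64 CPM in WT, 2.75 and 2.63 CPM in DuxKO, 2.59 and 2.52 CPM in Dppa2KO, 2.07 and 1.73 CPM in CtbpDKO, and 1.90 and 1.91 CPM in DKO-Dppa2. Ctbp-Dux TKO had the highest values, 4.16 and 3.70 CPM, above every other library of the table. Twist1 was not called in CtbpDKO against WT (−0.58, SE 0.22, edgeR adjusted p 0.074). It rose by 1.04 in Ctbp-Dux TKO against CtbpDKO (SE 0.22, edgeR adjusted p 0.012). That call was lost without CtbpDKO replicate 2 (edgeR adjusted p 0.091) and without Ctbp-Dux TKO replicate 1 (0.093).

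Of the 3 structural genes, Vim had the largest fold change in CtbpDKO. It had 75.1 and 84.2 CPM in WT, 72.4 and 60.3 CPM in Dppa2KO, and 191 and 182 CPM in DuxKO. The Ctbp knockouts had 336 and 363 CPM (CtbpDKO), 314 and 419 CPM (Ctbp-Dux TKO) and 425 and 448 CPM (DKO-Dppa2). CtbpDKO and Ctbp-Dux TKO overlapped, DKO-Dppa2 lay above both, DuxKO lay between the Ctbp knockouts and WT, and WT and Dppa2KO were lowest. Vim was 4.39-fold higher in CtbpDKO than in WT (log2 fold change 2.13, SE 0.13, edgeR adjusted p 9.9e-08). It rose by 1.23 in DuxKO against WT (SE 0.13, edgeR adjusted p 3.6e-05) and by 2.72 in DKO-Dppa2 against Dppa2KO (SE 0.14, edgeR adjusted p 1.9e-08). From the raised level of DuxKO it rose by 0.98 in Ctbp-Dux TKO (SE 0.13, edgeR adjusted p 5.4e-05).

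Because Vim is also abundant in fibroblasts, the 10 markers of fibroblast feeder cells were read beside it. All of them except Twist2 also belong to the further mesenchymal effectors read below. Their sum was 3.02 to 3.10 CPM in WT, 14.9 to 15.0 CPM in CtbpDKO, 8.54 to 10.4 CPM in Ctbp-Dux TKO and 7.71 to 8.43 CPM in DKO-Dppa2. Most of the sum in CtbpDKO came from Thy1 (334 and 395 counts) and Pdgfrb (120 and 122 counts). Between 4 and 7 of the 10 markers were at 0 counts in each library of the table, among them Lum, Postn and Fap in WT and all 3 Ctbp knockout groups, while Col1a1 had 16 and 16 counts in CtbpDKO. The 10 mesoderm and primitive streak markers summed to 7.73 to 8.79 CPM in WT, 9.08 to 10.2 CPM in DuxKO and 6.21 to 6.47 CPM in Dppa2KO. Their sum was 18.8 to 19.4 CPM in CtbpDKO, 16.1 to 21.2 CPM in Ctbp-Dux TKO and 18.7 to 21.0 CPM in DKO-Dppa2, so it was high in the same 6 libraries as Vim. The 6 formative epiblast markers went from 125 to 135 CPM in WT to 294 to 299 CPM in CtbpDKO. The part of these markers in the Vim values was not tested.

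Cdh2 ran against Vim under Ctbp loss and with it under Dux loss. It had 18.5 and 18 CPM in WT, 18.1 and 14.7 CPM in Dppa2KO, and 41.4 and 42.4 CPM in DuxKO. The Ctbp knockouts had 9.55 and 9.44 CPM (CtbpDKO), 9.23 and 12.4 CPM (Ctbp-Dux TKO) and 10.3 and 9.96 CPM (DKO-Dppa2). All 6 Ctbp knockout libraries lay below all others, and both DuxKO libraries lay above all others. Cdh2 fell by 0.94 in CtbpDKO (SE 0.14, edgeR adjusted p 0.00026), by 0.70 in DKO-Dppa2 against Dppa2KO (SE 0.14, edgeR adjusted p 0.0025) and by 1.95 in Ctbp-Dux TKO against DuxKO (SE 0.14, edgeR adjusted p 2.5e-07). It rose by 1.20 in DuxKO against WT (SE 0.14, edgeR adjusted p 6.5e-05).

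Fn1 was expressed throughout, at 818 and 857 CPM in WT, 604 and 626 CPM in CtbpDKO, and 563 and 697 CPM in Ctbp-Dux TKO. DuxKO had 712 and 697 CPM and Dppa2KO 658 and 691 CPM. DKO-Dppa2, at 390 and 346 CPM, lay below every other library. Fn1 fell by 0.45 in CtbpDKO (SE 0.10, edgeR adjusted p 0.0062), by 0.74 in DKO-Dppa2 against CtbpDKO (SE 0.10, edgeR adjusted p 0.00055) and by 0.87 in DKO-Dppa2 against Dppa2KO (SE 0.10, edgeR adjusted p 3.7e-05). Fn1 is also made by primitive endoderm. The 12 endoderm markers summed to 284 to 326 CPM in WT, 449 to 479 CPM in CtbpDKO, 1212.5 to 1256.8 CPM in Ctbp-Dux TKO and 242 to 251 CPM in DKO-Dppa2. Their part in the Fn1 and Vim values was not tested.

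**Figure D2:**
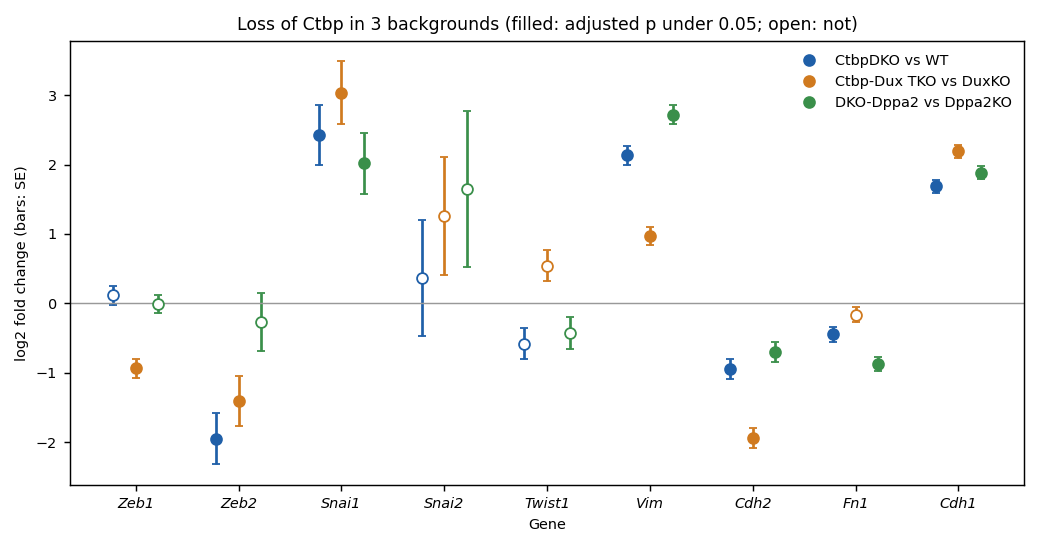
Log2 fold change (vertical axis, bars are SE) of the 8 genes and Cdh1 (horizontal axis) on loss of Ctbp in WT, DuxKO and Dppa2KO backgrounds. Filled points are called and open points are not. Snai1, Vim and Cdh1 lie above 0 and Cdh2 below 0 in all 3, while Zeb2 is called in WT and DuxKO backgrounds and Zeb1 in DuxKO.

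The 3 backgrounds share no library between their contrasts. Ctbp loss called 5 of the 8 genes in DuxKO cells, where 41% of all tested genes were called, and 4 of 8 in Dppa2KO cells, where 30.4% were. Snai1, Vim and Cdh2 were called in the same direction in each background. The share of all genes called alike in all 3 was not computed, so this count is only a description. The test of whether Ctbp loss acts differently without Dux called 4 of the 8 genes, against 19.5% of all genes. It was −1.16 for Vim (SE 0.18, edgeR adjusted p 0.00083), −1.05 for Zeb1 (SE 0.19, edgeR adjusted p 0.0020) and −1.0 for Cdh2 (SE 0.20, edgeR adjusted p 0.0037). For Twist1 it was 1.13 (SE 0.31, edgeR adjusted p 0.023), a call lost without WT replicate 1, either DuxKO library, CtbpDKO replicate 2 or Ctbp-Dux TKO replicate 1 (edgeR adjusted p from 0.061 to 0.085). So Vim gained less and Cdh2 fell further where Dux was already lost, while Zeb1 was called lower only there. The matching test with Dppa2 called 0 of 8 genes by edgeR, against 8.23% of all genes. There 3 of 8 had an unadjusted p under 0.05, and DESeq2 called 3, with no share over all genes to set beside either count.

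Dux or Dppa2 was also lost on top of Ctbp. Ctbp-Dux TKO against CtbpDKO called 2 of 8, Zeb1 and Twist1 as above, where 8.15% of all genes were called, and DKO-Dppa2 against CtbpDKO called 1 of 8, Fn1, where 15.4% were. Vim differed by 0.07 (SE 0.13) and 0.32 (SE 0.13) in these comparisons and Snai1 by 0.26 (SE 0.37) and −0.31 (SE 0.39), none of them called. With intact Ctbp genes, DuxKO against WT called 2 of 8, Vim and Cdh2, where 17.5% of all genes were called. Dppa2KO against WT called 1 of 8, Zeb2, where 16.4% were.

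Zeb2 and Vim moved in opposite directions alongside the return and second loss of Ctbp2 in the time course, and both had turned back by day 12. No control without the Ctbp2 change was sampled on these days. Ctbp2 level, time in culture and any Dox exposure therefore cannot be told apart. Zeb2 had 1.59 and 1.70 CPM at day 0, 8.51 and 7.44 CPM at day 3 and 5.85 and 8.38 CPM at day 9. It was at 2.85 and 2.50 CPM at day 12 and at 2.43 and 2.09 CPM at day 18. The 4 libraries with high Ctbp2 stood above the 6 with low Ctbp2. Zeb2 rose by 2.27 from day 0 to day 3 (SE 0.26, edgeR adjusted p 0.00030) and fell by 1.41 from day 9 to day 12 (SE 0.25, edgeR adjusted p 0.0060). The fall lost its call without day 9 replicate 2 or day 12 replicate 2 (edgeR adjusted p 0.080 and 0.083).

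Vim had 271 and 307 CPM at day 0, 152 and 128 CPM at day 3, 130 and 133 CPM at day 9, 256 and 240 CPM at day 12, and 248 and 324 CPM at day 18. No library with high Ctbp2 reached the lowest library with low Ctbp2. Vim fell by 1.05 from day 0 to day 3 (SE 0.14, edgeR adjusted p 0.00071) and by 1.14 from day 0 to day 9 (SE 0.14, edgeR adjusted p 0.00020). It rose by 0.92 from day 9 to day 12 (SE 0.14, edgeR adjusted p 0.0023). The fibroblast marker sum was 12.5 to 16.0 CPM at day 0, 9.28 to 10.3 CPM at day 3, 10.0 to 11.8 CPM at day 9, 18.2 to 18.8 CPM at day 12 and 20.5 to 24.7 CPM at day 18, with at most 6 of its 10 markers at 0 counts in a library. The mesoderm and primitive streak sum was 22.8 to 24.3, 11.7 to 12.5, 17.7 to 18.8, 25.9 to 30.3 and 22.6 to 23.1 CPM on the same days. The part of both sums in the Vim values was not tested.

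Snai1 followed the same order on smaller counts without passing the threshold. It had 57 and 75 counts at day 0, 36 and 42 at day 3, 45 and 42 at day 9, 63 and 92 at day 12 and 60 and 84 at day 18. As CPM, the high-Ctbp2 days held 1.65 to 2.14 and the low-Ctbp2 days 2.79 to 3.59, with no overlap. The log2 fold changes were −0.67 (SE 0.29, edgeR adjusted p 0.23) from day 0 to day 3, −0.83 (SE 0.29, edgeR adjusted p 0.11) from day 0 to day 9 and 0.97 (SE 0.29, edgeR adjusted p 0.083) from day 9 to day 12.

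Cdh2 also rose, and was called from day 0 to day 9. It had 9.66 and 10.8 CPM at day 0, 15.1 and 14.6 CPM at day 3 and 19.8 and 20.7 CPM at day 9. At day 12, with Ctbp2 low again, it still had 16.6 and 16.7 CPM, and at day 18 it had 6.73 and 8.84 CPM. From day 0 to day 3 Cdh2 differed by 0.54 (SE 0.15, edgeR adjusted p 0.059) without being called. It was 0.98 higher at day 9 than at day 0 (SE 0.15, edgeR adjusted p 0.0011). It was not called from day 9 to day 12 (−0.28, SE 0.14, edgeR adjusted p 0.35) and fell by 1.08 from day 12 to day 18 (SE 0.15, edgeR adjusted p 0.0039). The last value kept its size and lost its call in a fit of only those 2 days (edgeR adjusted p 0.058).

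**Figure D3:**
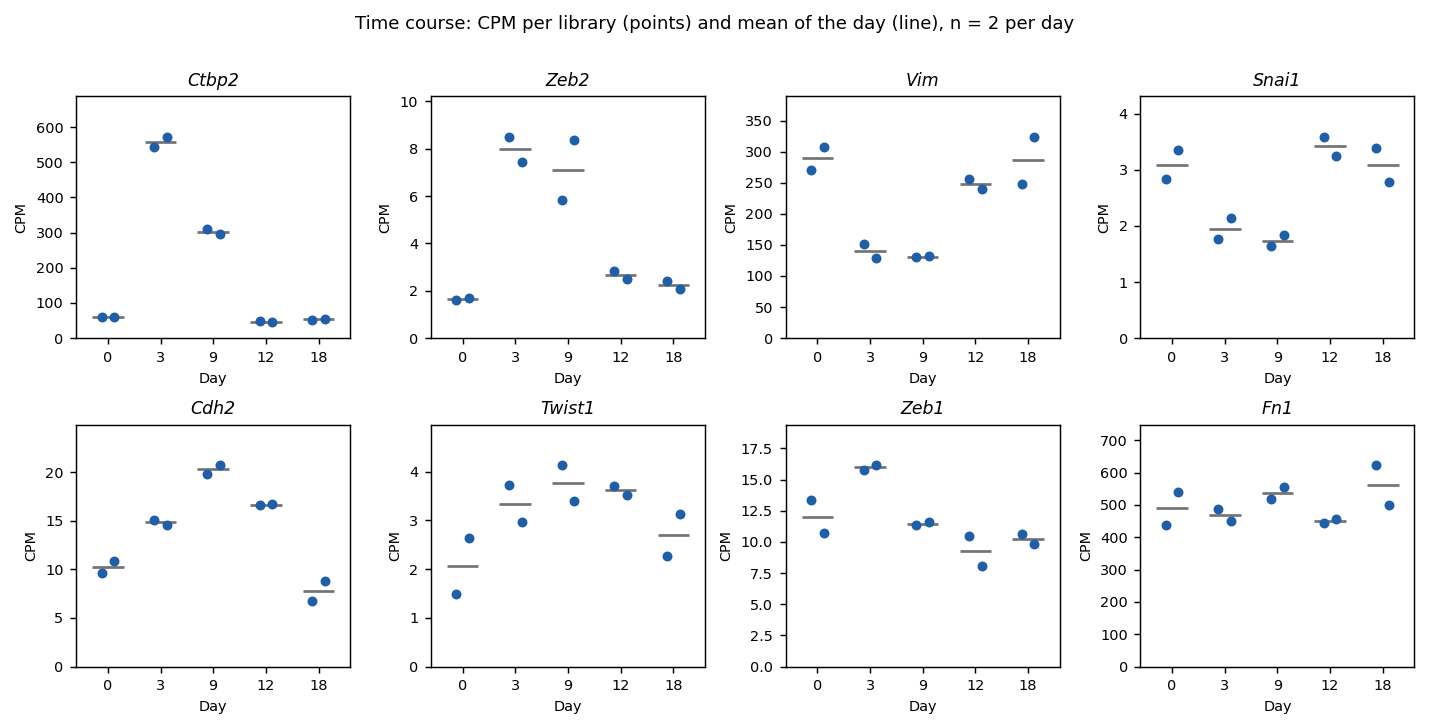
CPM (vertical axes, linear from 0) of Ctbp2 and 7 of the genes by day (horizontal axes, categories), with points for libraries and lines for day means, 2 libraries per day. Zeb2 follows Ctbp2, Vim and Snai1 run against it, and Cdh2 is still high at day 12.

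Zeb1, Twist1, Snai2 and Fn1 were not called between any pair of days compared. Zeb1 ran from 8.04 CPM (day 12) to 16.2 CPM (day 3), Twist1 from 1.49 CPM (day 0) to 4.13 CPM (day 9) and Fn1 from 438 CPM (day 0) to 623 CPM (day 18). Snai2 had 4 to 13 counts. In all, 2 of the 8 genes were called from day 0 to day 3, where 4.99% of tested genes were, 3 from day 0 to day 9 (7.34%), 2 from day 9 to day 12 (3.84%) and 1 from day 12 to day 18 (0.82%). The comparisons of day 3 and day 9 with day 0 share the day 0 libraries. Day 9 against day 0 and day 12 against day 9 share the day 9 libraries. Day 12 against day 9 and day 18 against day 12 share the day 12 libraries. From day 3 to day 9, with Ctbp2 high throughout, 0 of 8 were called by edgeR, where 1.12% of all genes were, 2 had an unadjusted p under 0.05 and DESeq2 called 0. Between the low-Ctbp2 days 18 and 0, edgeR also called 0 of 8 (0.514% of all genes), with 1 at an unadjusted p under 0.05 and 0 called by DESeq2. Vim differed by −0.01 (SE 0.14) there and Snai1 by −0.01 (SE 0.28). Zeb2 at day 18 (2.43 and 2.09 CPM) still lay above day 0 (1.59 and 1.70 CPM). Cdh2 at day 18 (6.73 and 8.84 CPM) lay below day 0 (9.66 and 10.8 CPM). With 2 libraries per day, a missing call does not show an equal level. Endoderm markers summed to 693 to 736 CPM at day 18 against 302 to 361 CPM at day 0, so these levels stood beside a changed endoderm sum whose part was not tested.

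Cdh1 was not called between any pair of days compared. It had 381 and 451 CPM at day 0, 351 and 325 CPM at day 3, 346 and 380 CPM at day 9, 423 and 431 CPM at day 12, and 503 and 446 CPM at day 18. The difference from day 0 to day 3 was −0.30 (SE 0.12, edgeR adjusted p 0.18) and from day 0 to day 9 −0.20 (SE 0.12, edgeR adjusted p 0.39). All libraries of days 0, 3, 9 and 12 lay between the levels of CtbpDKO (468 and 472 CPM) and WT (145 and 148 CPM) of the genotype table. This position is therefore not particular to day 9. WT of the Pramel7 table had 177, 183, 235 and 275 CPM. Each table was scaled separately, and the distance to WT was not tested.

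The Pramel7 table holds no Ctbp knockout, and Ctbp2 lay between 182 and 252 CPM in its libraries. It was 233 to 252 CPM in WT and lower in every other group, at 219 to 221 CPM in DuxKO and 182 to 196 CPM in P7OE. Ctbp1 had 60.1 to 73.6 CPM in WT, which P7KO overlapped. Above WT stood DuxKO (86.5 to 92.3 CPM), P7OE (103 to 109 CPM) and DuxKO-P7OE (86.8 to 91.4 CPM). The part of these shifts in the member values was not tested. Here Zeb1, Zeb2 and Vim rose in both DuxKO and P7OE. DuxKO against WT called 5 of 8 genes, where 16.7% of all genes were called, P7OE against WT 5 of 8 (19.9%) and P7KO against WT 3 of 8 (9.48%). These 3 comparisons share the 4 WT libraries. The WT libraries with numbers 3 and 4 differed from those with 5 and 6 in some genes: Fn1 had 121 and 134 CPM in the first pair and 265 and 445 CPM in the second.

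Zeb1 had 4.96, 5.54, 5.31 and 6.73 CPM in WT, 21.8 and 21.5 CPM in DuxKO, 16.7 and 14.8 CPM in P7OE, 11.7 and 10.1 CPM in DuxKO-P7OE, and 10.3 and 13.3 CPM in P7KO. Every other group stood above WT. Zeb1 rose by 1.94 in DuxKO (SE 0.16, edgeR adjusted p 6.3e-06), by 1.49 in P7OE (SE 0.16, edgeR adjusted p 5.8e-05) and by 1.07 in P7KO (SE 0.16, edgeR adjusted p 0.0011).

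Zeb2 had 3.03, 3.41, 1.65 and 2.55 CPM in WT and 2.58 and 2.40 CPM in P7KO, which overlapped. DuxKO had 10.3 and 10.8 CPM, P7OE 7.94 and 8.34 CPM and DuxKO-P7OE 6.88 and 6.17 CPM. It rose by 1.99 in DuxKO (SE 0.23, edgeR adjusted p 8e-05) and by 1.61 in P7OE (SE 0.23, edgeR adjusted p 0.00042). In the genotype table the same DuxKO comparison gave 0.09 for Zeb2 (SE 0.34, edgeR adjusted p 0.90) and 0.40 for Zeb1 (SE 0.13, edgeR adjusted p 0.055). WT Zeb1 stood at 13.2 and 15.3 CPM there. The difference between the tables was not tested.

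Vim had 59.3, 66.2, 83.4 and 68.1 CPM in WT, 198 and 238 CPM in DuxKO, 145 and 153 CPM in P7OE, 128 and 118 CPM in DuxKO-P7OE, and 64.6 and 77.9 CPM in P7KO. P7KO overlapped WT and the other 3 groups lay above it. Vim rose by 1.66 in DuxKO (SE 0.14, edgeR adjusted p 8.4e-06) and by 1.11 in P7OE (SE 0.14, edgeR adjusted p 0.00020). The first value stands beside 1.23 in the genotype table. Endoderm markers summed to 207 to 257 CPM in WT, 206 to 212 CPM in DuxKO, 849 to 887 CPM in P7OE and 797 to 864 CPM in DuxKO-P7OE, and their part in the P7OE values was not tested. The fibroblast sum was 4.59 to 6.35 CPM in WT and lower, at 2.85 to 2.86 CPM, in DuxKO.

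Cdh2 parted from Vim under Pramel7 overexpression. It had 17.7, 16.8, 19.3 and 19.5 CPM in WT, 45.7 and 45.7 CPM in DuxKO and 31.5 and 40.1 CPM in P7KO, against 9.62 and 14.2 CPM in P7OE and 9.91 and 10.0 CPM in DuxKO-P7OE. Cdh2 rose by 1.32 in DuxKO (SE 0.15, edgeR adjusted p 8.6e-05), close to the 1.20 of the genotype table, and by 0.97 in P7KO (SE 0.15, edgeR adjusted p 0.0014). It fell by 0.63 in P7OE (SE 0.16, edgeR adjusted p 0.017). That call was lost without P7OE replicate 1 (−0.37, edgeR adjusted p 0.26) and in a fit of only WT and P7OE (edgeR adjusted p 0.058).

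Twist1 had 5.68, 4.98, 3.31 and 2.68 CPM in WT and 4.53 and 4.61 CPM in DuxKO, which overlapped. It was highest with overexpressed Pramel7, at 10.2 and 9.01 CPM in P7OE and 8.62 and 9.16 CPM in DuxKO-P7OE, and lowest in P7KO at 1.92 and 1.67 CPM. It rose by 1.20 in P7OE (SE 0.25, edgeR adjusted p 0.0048), and by 1.10 without P7OE replicate 1, where the call was lost. Alternatives other than leaving out 1 library gave Twist1 a rise of 0.81 to 1.20 there. In P7KO it fell by 1.21 (SE 0.28, edgeR adjusted p 0.017). The call in P7KO was lost without either P7KO library (edgeR adjusted p 0.12 and 0.16), in a fit of only the groups compared (0.085), and against WT replicates 5 and 6 alone (−0.75, edgeR adjusted p 0.053).

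Snai1 had 14 to 29 counts in the WT libraries, 0 and 8 in DuxKO, 12 and 10 in DuxKO-P7OE, 24 and 19 in P7OE, and 27 and 24 in P7KO. Its fall in DuxKO (−2.42, SE 0.71, edgeR adjusted p 0.033) rested on DuxKO replicate 3, without which it was −1.65 (edgeR adjusted p 0.18). Without DuxKO replicate 4, which leaves the library at 0 counts, the fitted value was −7.35, and without WT replicate 5 the call was lost (edgeR adjusted p 0.061). It was also lost against WT replicates 3 and 4 alone (edgeR adjusted p 0.079) and in a fit of only the groups compared (0.092). Snai2 had at most 14 counts and was called in no comparison of this table. Fn1 had 268 and 184 CPM in DuxKO, 413 and 495 CPM in DuxKO-P7OE, 135 and 255 CPM in P7OE, and 221 and 197 CPM in P7KO. Against the 4 WT libraries Fn1 was not called in DuxKO, P7OE or P7KO, and DuxKO-P7OE was not compared with WT. Against WT replicates 3 and 4 alone it was higher in DuxKO by 0.78 (edgeR adjusted p 0.030), where the 4 WT libraries gave −0.10 (SE 0.43).

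**Figure D4:**
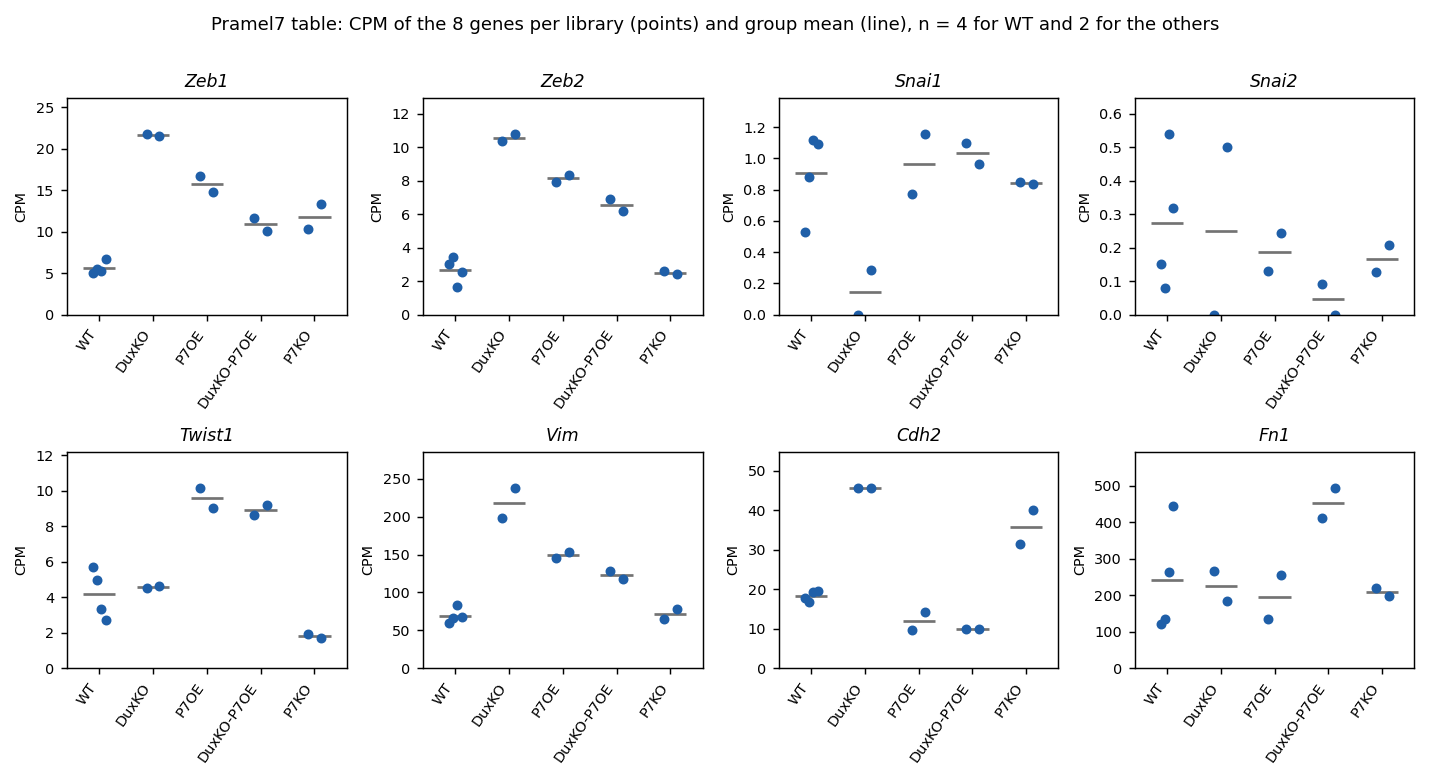
CPM of the 8 genes (vertical axes, linear from 0) in the 5 groups of the Pramel7 table, with points for libraries and lines for group means, 4 libraries for WT and 2 for each other group. Zeb1, Zeb2 and Vim are highest in DuxKO, Twist1 is highest with Pramel7 overexpression, and Fn1 spreads widely within WT.

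Pramel7 overexpression in DuxKO cells came with lower Zeb1, Vim and Cdh2 than in DuxKO alone. DuxKO-P7OE against DuxKO called 5 of 8 genes, where 21.4% of all genes were called: Zeb1 fell by 0.99 (SE 0.19, edgeR adjusted p 0.0034), Vim by 0.83 (SE 0.17, edgeR adjusted p 0.0046) and Cdh2 by 2.20 (SE 0.20, edgeR adjusted p 1.2e-05), and Snai1 rose by 2.62 and Twist1 by 0.96. With any 1 of the 4 libraries left out, 3 of the 8 genes were called. Vim lost its call without DuxKO replicate 4 (−0.70, edgeR adjusted p 0.057), Twist1 without any 1 of the 4 libraries (edgeR adjusted p 0.12 to 0.16), and Snai1 without DuxKO replicate 3 (1.84, edgeR adjusted p 0.12) or either DuxKO-P7OE library (edgeR adjusted p 0.089 and 0.13). Without DuxKO replicate 4 the Snai1 value was 7.53. The test of whether Pramel7 acts differently without Dux gave −2.48 for Zeb1 (SE 0.25, edgeR adjusted p 0.00011), −2.30 for Zeb2 (SE 0.36, edgeR adjusted p 0.0022), −1.93 for Vim (SE 0.22, edgeR adjusted p 0.00027) and −1.56 for Cdh2 (SE 0.25, edgeR adjusted p 0.0026). It called 4 of 8 genes, where 7.5% of all genes were called. These values include the DuxKO against WT difference of this table, which for Zeb1 and Zeb2 was larger than in the genotype table. Between DuxKO-P7OE and P7OE, 0 of 8 genes were called by edgeR, where 0.0298% of all genes were, 2 had an unadjusted p under 0.05 and DESeq2 called 0. Fn1 differed by 1.22 there (SE 0.50, edgeR adjusted p 0.40). It was called higher with the replicate block (1.30, edgeR adjusted p 0.00020) and with no filter on low counts (1.21, edgeR adjusted p 6.3e-08).

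Other genes of the transition were read from lists of 44 epithelial genes, 40 further mesenchymal effectors, 20 further transcription factors and 21 genes of the TGF-beta pathway. All 44 epithelial genes could be tested, and in CtbpDKO against WT 25 were called higher and 2 lower, with 14.7% of all tested genes called higher and 11.4% lower. Their median log2 fold change was 0.95. Krt8, a keratin of simple epithelia, rose by 2.66 (17.9 to 113 CPM), Lamb3, a laminin chain of epithelial basement membranes, by 3.42, Ppl, a desmosome linker, by 2.26 and Krt7 by 4.11. The 2 that fell were Grhl2, a transcription factor that maintains epithelia (−1.04), and Epcam, an epithelial adhesion protein (−0.53). Trophoblast markers, which include Krt7, summed to 19.6 to 20.0 CPM in WT and 38.0 to 39.9 CPM in CtbpDKO, beside the endoderm and formative epiblast sums given above, and their part in the epithelial counts was not tested.

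Ctbp loss in the other backgrounds gave 34 epithelial genes called higher and 10 not called in Ctbp-Dux TKO against DuxKO (21.4% of all genes called higher, 19.6% lower). In DKO-Dppa2 against Dppa2KO, 30 were called higher and 4 lower (15.2% called higher and 15.2% lower). Grhl2 was not alike in them, at 1.13 and −1.42, both called. In the Pramel7 table the list moved down: 26 were called lower in DuxKO (8.91% of all genes called lower), 22 in P7OE (8.9%) and 23 in P7KO (5.55%), with 1, 4 and 1 higher (7.76%, 11% and 3.93% of all genes), all against the same WT libraries. The formative epiblast sum was 372 to 517 CPM in WT, 80.6 to 94.9 CPM in DuxKO, 198 to 206 CPM in P7OE and 123 to 124 CPM in P7KO, and its part in these counts was not tested. Cdh1 itself fell there by 2.19 (SE 0.19), 0.81 (SE 0.18) and 1.07 (SE 0.18). DuxKO of the genotype table had 11 called lower and 3 higher, with 9.56% of all genes called lower and 7.94% higher.

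Of the 40 mesenchymal effectors outside the 8 genes, 32 could be tested. The list includes every fibroblast marker read above except Twist2, so it and the fibroblast sum are not separate readings. Sparc and Col4a1 of this list are also endoderm markers, and the mesoderm and trophoblast markers share Eomes and Hand1, so those sums overlap too. In CtbpDKO 18 of them were called higher, 2 lower and 12 not called, where 14.7% of all genes were called higher and 11.4% lower, and their median was 1.27. Ddr2 (a collagen receptor) rose by 2.79, Thy1 (a surface glycoprotein) by 2.52 and Anxa2 (a membrane-binding annexin) by 2.24, while Tgfbi (−1.38) and Vcan (−0.79), both matrix proteins, fell. In Ctbp-Dux TKO against DuxKO 14 of 32 were called higher and 5 lower, where 21.4% and 19.6% of all genes were. In DKO-Dppa2 against Dppa2KO 17 were higher and 4 lower, where 15.2% and 15.2% were. With Ctbp genes intact, DuxKO against WT of the genotype table called 10 higher and 2 lower (7.94% and 9.56% of all genes). Dppa2KO against WT called 4 higher and 8 lower. Against WT of the Pramel7 table, 7 were higher and 7 lower in DuxKO (7.76% and 8.91%). There 8 were higher and 4 lower in P7OE (11% and 8.9%), and 1 higher and 13 lower in P7KO (3.93% and 5.55%). Of the named genes, Anxa2 fell at day 9 of the time course by 1.46 and Thy1 by 0.83, both called, while Ddr2 (−0.49) was not called. At day 9 against day 0, 2 of 30 tested effectors were called higher and 4 lower. In the same comparison 4 of the 44 epithelial genes were called higher and 2 lower, where 3.6% of all genes were called higher and 3.73% lower. At day 3, 12 epithelial genes were lower and 1 higher (2.59% of all genes called lower, 2.41% higher).

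**Figure D5:**
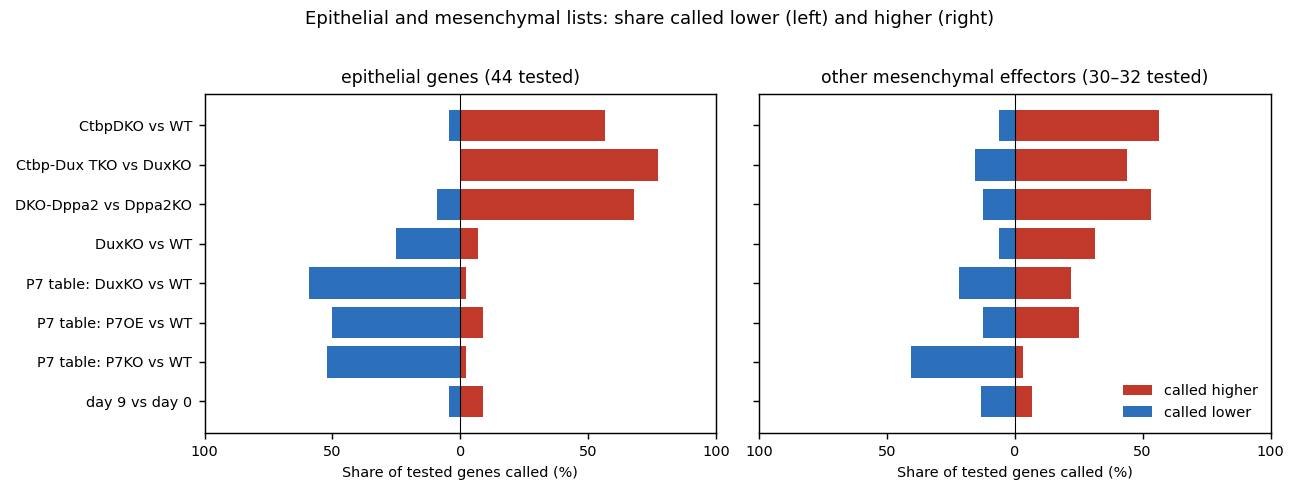
Share of tested genes called lower (blue, to the left) and higher (red, to the right), in percent, for the epithelial list (44 tested) and the further mesenchymal effectors (30 to 32 tested) in 8 comparisons. Both lists lean higher on Ctbp loss, and the mesenchymal list also leans higher in DuxKO of the genotype table. The epithelial list leans lower in the 3 comparisons of the Pramel7 table with WT, and the mesenchymal list leans lower in P7KO.

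Among the 20 further transcription factors, 16 could be tested in the genotype table, with 4 called higher and 6 lower in CtbpDKO, against 14.7% and 11.4% of all tested genes, shares that also hold for the lists below. Tbx3, a T-box factor also expressed in naive stem cells, rose by 1.71, Klf8 by 1.10, Prrx2 by 1.07 and Id1 by 0.87. Id2, an inhibitor of basic helix-loop-helix factors, fell by 1.84, Tcf12 by 1.48 and Sox4 by 0.77. Of the 21 TGF-beta genes, 19 could be tested, with 6 higher and 5 lower. The ligand gene Tgfb1 went from 1.42 to 7.15 CPM (2.33), the receptor genes Tgfbr2 and Tgfbr3 rose by 1.04 and 1.15, Tgfbr1 fell by 0.59, and the genes of the pathway's repressors Skil and Ski fell by 1.34 and 0.40. Of 17 genes of the CtBP complex, 6 were called higher and 2 lower, the 2 being Ctbp1 and Ctbp2. Ehmt2, a histone methyltransferase, rose by 0.47. All values named here passed the threshold of edgeR's quasi-likelihood test in CtbpDKO against WT.

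The genes most like each member in the genotype table were found by Pearson correlation of log2 CPM over its 12 libraries, which share 6 genotypes. For Vim these were Arhgap10 (0.986) and Eomes (0.984), with 0.937 and 0.886 over the 10 time course libraries. For Snai1 they were Sipa1l3 (0.977) and Kalrn (0.977), with 0.695 and 0.482, and for Zeb2 Rnf144a (0.935) and Nsl1 (0.933), with 0.771 and 0.244. Cdh2 was most like Clip1 (0.984) and Adk (0.974), with 0.16 and 0.661, and Fn1 most like Smarcc1 (0.975) and Trim33 (0.965), with 0.372 and 0.13. Twist1 was most like Peg3 (0.953) and Lef1 (0.918), Zeb1 most like Efl1 (0.897) and Dennd5a (0.890), and Snai2, on few counts, most like Wdr77 (0.894) and C2cd2 (0.891). Over the 12 libraries of the Pramel7 table the values were 0.664 and −0.263 for Vim, 0.279 and 0.545 for Snai1, 0.679 and −0.500 for Zeb2, −0.0505 and 0.889 for Cdh2, and 0.265 and −0.561 for Fn1, so no gene pair was above 0.8 in all 3 tables. Between the members and Ctbp2 over those 10 libraries, r was 0.931 for Zeb2, −0.922 for Vim, −0.908 for Snai1, 0.756 for Zeb1, 0.538 for Cdh2, 0.396 for Twist1, 0.186 for Snai2 and −0.0073 for Fn1. The rank correlations (Spearman) were 0.539 for Zeb2, −0.588 for Vim, −0.770 for Snai1, 0.879 for Zeb1, 0.188 for Cdh2, 0.152 for Twist1, 0.297 for Snai2 and 0.0788 for Fn1. Both are given as a description of 5 days with 2 libraries each.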

How the data were processed

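RNA was sequenced in 34 libraries of E14tg2a cells. The authors deposited raw counts per gene symbol, 1 column per library, with no normalization. Per the submitters' processing notes, Trim Galore, HISAT2, featureCounts and Bismark were used with build mm10. Their versions, the annotation and the strand setting are not given in the sources used here, so overlapping and antisense genes may share counts. A further deposited table of 8 columns repeats library names of the genotype table and was not used.

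Groups follow the titles, and the description for DKO-Dppa2. Genes were kept by filterByExpr (21193, 20161 and 20612 genes), scaled by trimmed mean of M values and tested with edgeR 4.0.16 (quasi-likelihood, group as the only term, all libraries of a table in 1 fit) in R 4.3.3, with Benjamini-Hochberg adjustment over all tested genes. The procedure was tested on simulated data. Fold changes use a prior count of 0.125, and CPM uses scaled library sizes. Alternatives were DESeq2 1.42.0, other scalings, no filter, a prior count of 2, fits of the groups compared, each library left out, subsets of WT and the replicate number as a block. Reads carry no molecular identifiers.

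The members and lists were chosen with earlier results of these data known. Named were all members, Ctbp1, Ctbp2, Cdh1, up to 4 genes per list and direction with the largest change in CtbpDKO among called genes without overlap and with a mean of at least 50 counts, and 2 genes per member with the highest correlation among genes whose log2 CPM averaged 2 or more. Some genes that this rule names are not reported here.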

Additional observations from a re-analysis of the deposited data

Results flagged for a closer look

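The following effects differed between 2 backgrounds by an interaction test (edgeR quasi-likelihood, Benjamini-Hochberg adjusted over all genes, 2 libraries per group except 4 WT libraries in the Pramel7 table). The effect of Ctbp loss differed with Dux for Zeb1 (−1.05, adjusted p 0.0020), Twist1 (1.13, adjusted p 0.023), Vim (−1.16, adjusted p 0.00083) and Cdh2 (−1.0, adjusted p 0.0037). The Twist1 call did not hold with certain single libraries left out, as given above. The effect of Pramel7 overexpression differed with Dux for Zeb1 (−2.48, adjusted p 0.00011), Zeb2 (−2.30, adjusted p 0.0022), Vim (−1.93, adjusted p 0.00027) and Cdh2 (−1.56, adjusted p 0.0026). All values are differences of log2 fold changes, DuxKO background minus Dux-intact background. The Pramel7 values include the DuxKO against WT difference of that table. It was 1.94 for Zeb1 and 1.99 for Zeb2, against 0.40 and 0.09 in the genotype table.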

How the results depend on the processing

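Over 1988 alternative values of the 168 gene results, 1846 kept direction and side of the threshold, 35 lost a call, 24 gained one and 2 reversed. In 81 more the sign changed while neither value passed the threshold, 62 of them with 1 library left out. Fn1 in DuxKO against WT of the Pramel7 table reversed, to 0.78 with WT replicates 3 and 4 alone and to 0.77 with the replicate block on WT and DuxKO replicates 3 and 4. The number of the 8 genes called rose from 1 to 2 in Dppa2KO against WT (upper quartile factors, DESeq2 and no filter) and in DKO-Dppa2 against CtbpDKO (no filter, only the groups compared). In the interaction of Ctbp with Dppa2 it went from 0 to 1 with upper quartile factors or only the groups compared and to 3 with DESeq2 or no filter. In DuxKO-P7OE against P7OE it went from 0 to 1, Fn1, with no filter or the replicate block, and from day 12 to day 18 it fell from 1 to 0 in a fit of those days. The causes were not tested. With 1 library left out the number ran from 0 to 1 for Ctbp-Dux TKO against CtbpDKO and for the interaction of Ctbp with Dppa2, was 3 throughout for DuxKO-P7OE against DuxKO, and ran from 3 to 5 for P7OE against WT and from 1 to 2 for day 12 against day 9. A lone library left in a group is assumed to vary like the others. Replicate numbers showed no regular pairing among groups of 2 libraries with the same numbers. Correlations of replicate differences between these groups spanned −0.409 to 0.150 in the genotype table, −0.039 to 0.0997 in the Pramel7 table and −0.188 to 0.101 over the days. WT of the Pramel7 table was not included, so its pairing with DuxKO was not examined this way. With the replicate block, CtbpDKO against WT called 5 genes, and no call of a member changed in the genotype table or over the days. Counts of Snai2 and Snai1 limit what their comparisons can show.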
